A study of Mus musculus with 23 samples.

Results

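The coagulation and complement genes that hepatocytes express were examined in the liver of WT and Pxr-/- mice given the PXR ligand PCN or its vehicle. The members were 36 named genes, each read from the non-control array probe that carried its symbol, and where a symbol had several probes the one with the highest mean log2 median signal over all arrays was used. They were 36 of the 37074 genes on the array, and all 36 were among the 21047 genes that passed the filter on dim probes and were tested. Liver RNA of 23 male C57Bl6/J mice was hybridized to Agilent one-colour arrays, 1 array per mouse. The 6 WT CONT and 6 Pxr-/- CONT mice received corn oil, whereas the 5 WT PCN and 6 Pxr-/- PCN mice received PCN at 100 mg/kg in corn oil, as a daily intraperitoneal injection for 4 days. The last injection preceded tissue collection by 6 h, and livers were taken at ZT6, that is 6 h after lights on. The labels give the animals as fed, and the study describes them as semi-fasted at this time of day. The WT mice were purchased at 6 weeks of age, the Pxr-/- mice had been bred in the animal facility of the study for 10 years on the C57Bl/6J background, and all were acclimatized for 2 weeks. Genotype and colony therefore cannot be told apart, and no age of the Pxr-/- mice is given in the sources used here.

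Coagulation is a cascade of plasma proteases, most of them made by hepatocytes, in which factors of the contact, extrinsic and common routes lead to thrombin, and thrombin turns fibrinogen into fibrin. Anticoagulant proteins restrain the cascade and plasmin dissolves the clot. Complement is a second plasma cascade, started by the classical, lectin or alternative pathway, that converges on C3 and ends with a pore built from the terminal components. The liver supplies most of both systems, and several members are acute-phase proteins whose genes respond to interleukin-6. PXR, encoded by Nr1i2, is a nuclear receptor that senses xenobiotics and controls drug metabolism genes, and PCN is its rodent ligand.

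The labels and the tissue were checked first. Cyp3a11, a PXR target gene, was 3.55 log2 units higher after PCN than after vehicle in WT mice (adjusted p = 4.1e-10), with a change of 0.31 in Pxr-/- mice (adjusted p = 0.43). The array probe for Nr1i2 itself read 10.63 to 12.15 in WT CONT mice and 10.16 to 12.08 in Pxr-/- CONT mice (log2 change -0.03, adjusted p = 0.98). It therefore does not check the genotype labels, and whether it lies in the deleted part is not given in the sources used here. The 6 hepatocyte markers examined (Alb, Apoa1, Ttr, Cps1, Apob and Ahsg) were tested, and their summed log2 signal was 19.73 to 20.12 in WT CONT, 19.73 to 19.89 in WT PCN, 19.85 to 19.95 in Pxr-/- CONT and 19.83 to 19.95 in Pxr-/- PCN mice. Per array, 29510 to 33321 of the 56605 probes exceeded background. All 36 member probes were well above background on the 23 arrays and none was saturated. The members were bright probes. The dimmest of them, C6, exceeded 87.3% of the tested probes, and 13 lay in the brightest 1%.

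In each comparison a gene was called where the limma adjusted p was at most 0.05 and the fold change exceeded 1.5. Genes that met the adjusted p alone are reported as a second, looser count. Changes are differences of log2 signal, and whole-liver RNA cannot tell fewer cells of a type apart from less RNA per cell.

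In WT mice PCN left most of these genes within 1.5-fold of vehicle. C2 was called higher and Mbl2 and C6 were called lower, that is 1 and 2 of 36 members, where 3.78% of all genes tested were called higher and 2.39% lower. By the adjusted p alone, 1 member was higher (C2) and 9 were lower (F5, F12, Klkb1, Proc, Mbl2, C6, C8b, C8g and C9), beside 11.6% and 12.4% of all genes. These counts were 3 and 7 with the processed signal and 6 and 0 with the authors' own processed values. The median change of the members was -0.11, beside -0.02 for all genes tested, and 26 of 36 were below 0 (72.2%, beside 54.4% of all genes). In the authors' values, in which the median probe moved by 0.11 in this comparison, the members' median was 0.06 and 13 were below 0. Relative to the median of all probes it was -0.05 there and -0.09 here. The 95% interval of the change lay within 1.5-fold for 30 of 36 members (83.3%, beside 77.3% of all genes).

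In Pxr-/- mice none of the members was called by limma in either direction, where 1.43% of all genes were called higher and 0.86% lower, although 19 members were higher and 2 lower at an unadjusted p under 0.05, beside 10.6% and 12.3% of all genes. By the adjusted p alone 9 were higher (F13b, Serpind1, Pros1, Plg, Cpb2, C4b, Cfb, Hc and C4bp) and 2 lower (Mbl2 and C8g), beside 3.24% and 3.63% of all genes. The median change was 0.18, beside -0.01 for all genes, and 30 of 36 were above 0. That direction held with each of the other scalings tried, with 29 to 33 members above 0. Within washing batch 1 the median was 0.08 and within batch 2 it was 0.23, and no member passed the adjusted p within either batch of 3 mice per group.

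The PCN change was lower in WT than in Pxr-/- mice for 32 of 36 members (88.9%, beside 52.1% of all genes), with a median difference of -0.30 beside -0.01 for all genes. The members were read in the same livers, so they are not 36 independent readings. Their median per mouse had an SD between mice of 0.07, pooled over groups. Among the 3532 genes that were no members but at least as bright as C6, 53% had a lower change in WT mice, with a median of -0.02. The number of members with the lower change in WT was 32 or 33 with the other scalings of the scanner signals and 27 with the authors' values. In the latter the median probe of the difference stood at 0.08, and 33 of 36 members lay below it. F5 was called in this test of the difference and none was called higher, beside 0.242% of all genes called lower and 0.808% higher. By the adjusted p alone F5 and Proc passed, both lower in WT, and none was higher, beside 0.508% and 1.05% of all genes. These 2 were 6 without WT CONT replicate 2, 5 without Pxr-/- CONT replicate 2, 4 without WT PCN replicate 1 or 3, and 5 with the mean over probes. With the processed signal and with median centring 1 member was lower and 1 higher. With the authors' values 0 were lower and 1 higher, and within washing batch 1 the counts were 0 and 0. At an unadjusted p under 0.05, 18 members were lower and 1 was higher, beside 7.22% and 7.85% of all genes. In 21 members (58.3%, beside 16.3% of all genes) the change was below 0 in WT and above 0 in Pxr-/- mice, a count of 10 with the authors' values, in which the median probe moved by 0.11 in WT mice.

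**Figure D1:**
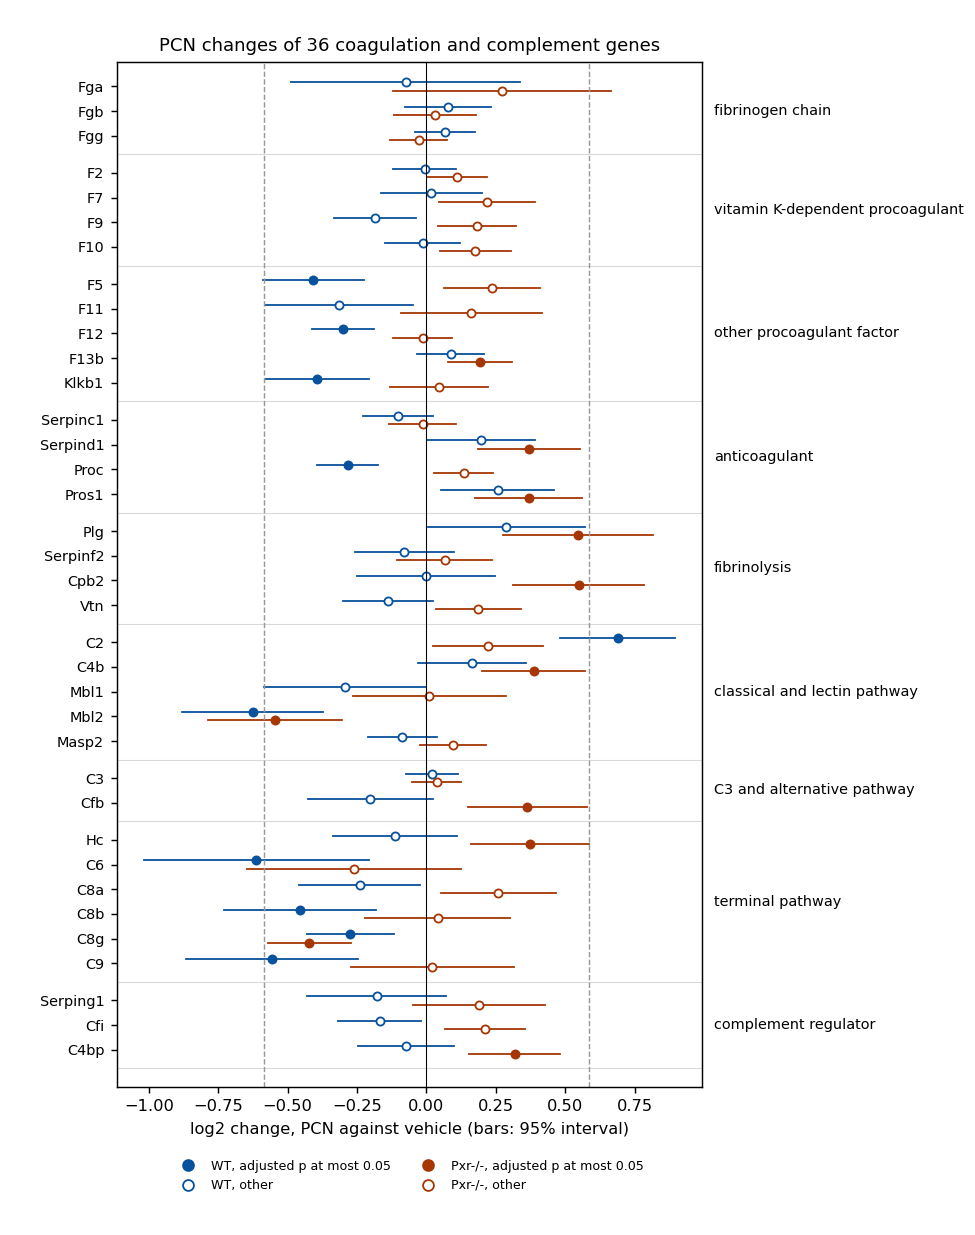
Log2 change with PCN (x axis) of the 36 genes, by role, in WT mice (blue) and Pxr-/- mice (orange), with 95% intervals from the limma fit. Filled points met an adjusted p of 0.05 and dashed lines mark 1.5-fold. C2 lies past the line on the right, Mbl2 and C6 past it on the left, and most orange points lie to the right of the blue ones.

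**Figure D2:**
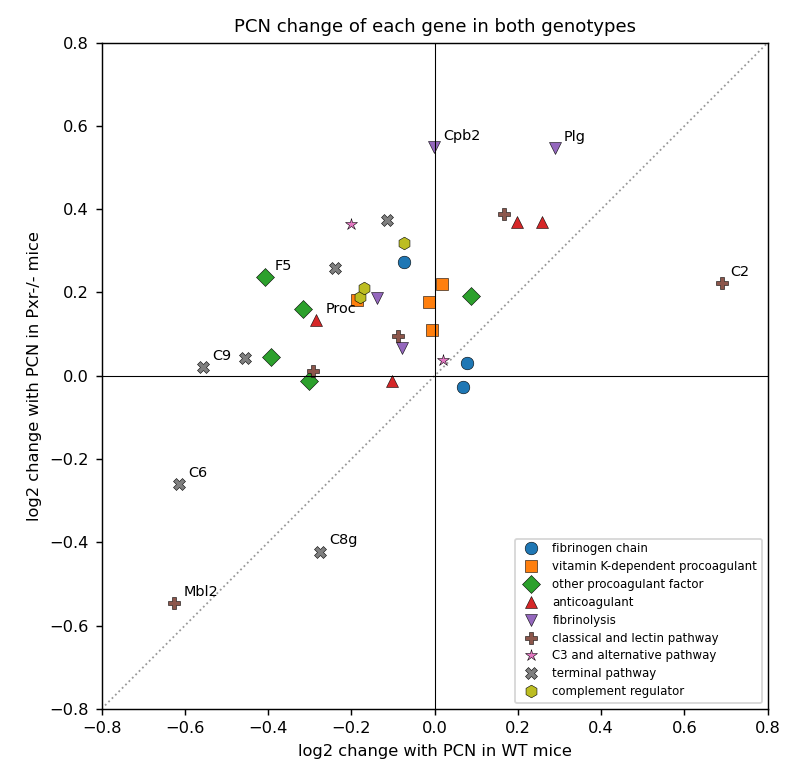
Log2 change with PCN in WT mice (x axis) against that in Pxr-/- mice (y axis), 1 point per gene and 1 symbol per role, with equal changes on the dotted line. In 32 of 36 genes the point lies above that line, and 21 lie to the left of 0 in WT and above 0 in Pxr-/- mice.

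Without PCN the genotypes differed little in these genes. None of the 36 was called by limma, where 0.228% of all genes were called higher in Pxr-/- mice and 0.0808% lower, and none passed the adjusted p alone, beside 0.347% and 0.147%. At an unadjusted p under 0.05, 1 was higher and 5 were lower, beside 6.22% and 5.97% of all genes. The 95% interval lay within 1.5-fold for 36 of 36 (beside 89.9% of all genes), with a median of -0.06, which was 0.04 with the processed signal scaled to its 75th percentile. No member had non-overlapping groups in either direction, beside 0.461% of all genes for higher and 0.375% for lower.

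The groups did not overlap in WT mice for 1 member higher with PCN (C2) and 6 lower (F5, F12, Klkb1, Proc, Mbl2 and C8g), beside 5.85% and 6.51% of all genes. Among Pxr-/- mice this held for 7 members higher (F13b, Plg, Cpb2, Vtn, C4b, Cfb and C4bp) and 2 lower (Mbl2 and C8g), beside 1.57% and 1.58% of all genes.

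The fibrinogen chains form the clot itself. Fgb, the beta chain, read 18.35 to 18.52 in WT CONT mice with a median of 18.39. With PCN the 5 WT mice read 18.55, 18.45, 18.35, 18.66 and 18.49. The Pxr-/- mice read 18.26 to 18.55 (median 18.45) with vehicle and 18.20 to 18.59 (median 18.49) with PCN. The groups overlapped in both genotypes, and the change was 0.08 ± 0.07 (SE, adjusted p = 0.49) in WT and 0.03 ± 0.07 (adjusted p = 0.85) in Pxr-/- mice. Fgg, the gamma chain, changed by 0.07 and -0.03 and Fga, the alpha chain, by -0.07 and 0.27, none past the adjusted p. With median centring in place of quantile normalization the WT values of these 3 chains changed sign (Fgb -0.03, Fgg -0.02, Fga 0.04), so no direction is given for them. Fgb and Fgg exceeded 99.97% and 99.93% of the tested probes, and some mice shared a normalized value. Their small spread is therefore no measure of stability.

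A second Fga probe gave another picture. It lies at chr3:82837260-82837319 (mm9), downstream of the brighter probe at chr3:82835678-82835737 (mm9) on the same gene, and it exceeded 92.4% of the tested probes. In WT CONT mice it read 11.23 to 13.42 with a median of 11.95. With PCN the 5 WT mice read 14.32, 13.22, 13.18, 14.77 and 14.18. The highest WT CONT mouse lay within the treated range and the other 5 lay below it. The Pxr-/- groups did not overlap, with 11.70 to 12.67 (median 12.12) for CONT and 13.29 to 14.63 (median 14.21) for PCN. The change was 1.78 in WT (adjusted p = 8.6e-04) and 1.89 in Pxr-/- mice (adjusted p = 0.0022), both called, with no difference between the genotypes past the test (-0.11, adjusted p = 0.95). Within washing batch 1 the WT change was 2.53 and within batch 2, with 2 WT PCN mice, it was 0.80 (adjusted p = 0.41). This probe was singled out after its values were seen. It is not the probe the 36 were read from, so that the Fga values counted above show no such rise.

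**Figure D3:**
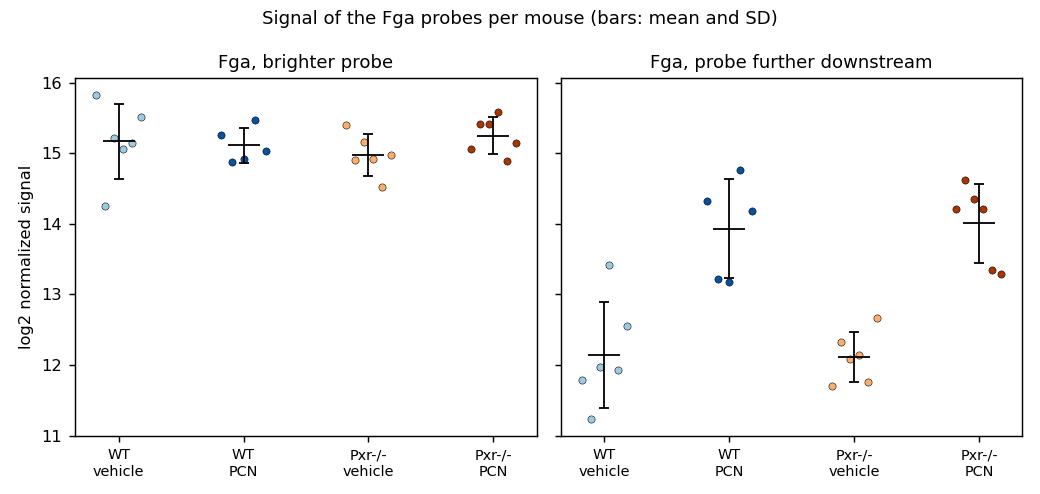
Log2 normalized signal (y axis) of the 2 Fga probes in each mouse, by group, with mean and SD. The brighter probe lies between 14.25 and 15.83 in all groups, and the downstream probe is 1.78 higher with PCN in WT and 1.89 higher in Pxr-/- mice.

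The region upstream of Fga is shown because it was the one member promoter with 3 of the 4 hepatocyte and acute-phase motifs searched, together with those of F5, Mbl2 and C6, the called members with an entry in the RefSeq promoter table (GRCm38.p6). Of 36 members 29 had an entry, and C2 did not. The motifs, searched on both strands in 300 bases around each start, were HNF1 (GTTAATNAT), C/EBP (TTGCNNAA), STAT (TTCNNNGAA) and HNF4 (CAAAGTCCA), and none overlapped another in the sequences shown. Each sequence is the 250 bases before the annotated start, from 5′ to 3′ on the strand of the gene, and capitals mark motif matches.
Fga, chr3:83025903-83026152 (+): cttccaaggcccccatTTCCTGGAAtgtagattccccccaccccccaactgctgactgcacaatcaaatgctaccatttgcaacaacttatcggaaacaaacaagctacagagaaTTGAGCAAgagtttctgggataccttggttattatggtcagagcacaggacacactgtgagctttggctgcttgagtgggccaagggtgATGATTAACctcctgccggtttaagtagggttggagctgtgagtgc
F5, chr1:164151585-164151834 (+): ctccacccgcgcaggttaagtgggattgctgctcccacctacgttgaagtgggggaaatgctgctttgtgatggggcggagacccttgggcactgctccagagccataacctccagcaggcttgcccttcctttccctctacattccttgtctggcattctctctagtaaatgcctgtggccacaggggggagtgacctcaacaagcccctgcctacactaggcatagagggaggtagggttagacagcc
Mbl2, chr19:30232678-30232927 (+): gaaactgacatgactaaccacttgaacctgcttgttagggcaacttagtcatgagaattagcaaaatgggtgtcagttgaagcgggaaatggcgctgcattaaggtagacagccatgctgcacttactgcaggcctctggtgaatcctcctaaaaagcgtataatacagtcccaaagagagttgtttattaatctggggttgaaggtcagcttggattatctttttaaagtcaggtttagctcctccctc
C6, chr15:4726960-4727209 (+): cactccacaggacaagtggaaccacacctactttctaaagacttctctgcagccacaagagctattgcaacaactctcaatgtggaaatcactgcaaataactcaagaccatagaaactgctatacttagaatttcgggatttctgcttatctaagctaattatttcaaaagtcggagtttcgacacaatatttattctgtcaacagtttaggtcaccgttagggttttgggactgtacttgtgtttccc
The HNF1 letters stood in 4 of the 29 member windows (Fga, F13b, Hc and C4bp), beside 0.801% of all 32851 windows. The C/EBP letters stood in 9 (Fga, Fgb, F9, F11, Klkb1, Serpinc1, Cpb2, C3 and C9), beside 10.8%. The STAT letters stood in 7 (Fga, Fgb, F9, Pros1, Vtn, Masp2 and C8a), beside 8.3%. No member window held the HNF4 letters, beside 0.475%. No letters of the 4 motifs stood in the upstream bases shown for F5, Mbl2 and C6.

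The vitamin K-dependent procoagulants F2 (prothrombin), F7, F9 and F10 depend on carboxylation by Ggcx for function. None of the 4 was called. F9 read 12.82 to 13.07 in WT CONT mice with a median of 13.03. After PCN the 5 WT mice read 12.98, 12.67, 12.72, 12.82 and 12.90. F9 in Pxr-/- mice read 12.89 to 13.15 (median 12.95) with vehicle and 13.02 to 13.32 (median 13.19) with PCN. The groups overlapped in both genotypes, and the change was -0.19 ± 0.07 (adjusted p = 0.065) in WT, 0.01 with the authors' values, and 0.18 ± 0.07 (adjusted p = 0.11) in Pxr-/- mice. Changes of the other 3 lay between -0.01 and 0.02 in WT and between 0.11 and 0.22 in Pxr-/- mice. Of 7 genes reported of the vitamin K cycle and of factor export, none was called by limma in a comparison. At an unadjusted p under 0.05, 2 were higher and 1 lower in WT mice, beside 16.8% and 19.1% of all genes. By the adjusted p alone Ggcx was higher in WT (0.24), and Vkorc1, which recycles vitamin K, was lower with PCN in both genotypes (-0.37 and -0.28).

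Among the other procoagulant factors F5, the cofactor of factor Xa in making thrombin, showed the clearest difference between the genotypes. F5 read 14.43 to 14.66 in WT CONT mice with a median of 14.53. The 5 WT PCN mice read 14.24, 13.99, 14.14, 14.29 and 14.02, each below the lowest WT CONT mouse. F5 in Pxr-/- mice read 14.16 to 14.66 (median 14.41) with vehicle and 14.45 to 14.81 (median 14.72) with PCN, and these groups overlapped. The change was -0.41 ± 0.09 (adjusted p = 0.0021, 1.33-fold lower) in WT and 0.24 ± 0.08 (adjusted p = 0.094) in Pxr-/- mice, a difference of -0.64 ± 0.12 (adjusted p = 0.0051). With the authors' values the WT change was -0.16 and did not pass the adjusted p. The call of the difference held without any single array and was lost with the processed signal (-0.52), median centring (-0.53), the authors' values (-0.44, adjusted p = 0.15) and within washing batch 1 (-0.38, adjusted p = 0.32), beside -0.92 within batch 2.

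F12 and Klkb1 start the contact route, as factor XII and the plasma prekallikrein that it activates. Both were lower with PCN in WT by the adjusted p alone, F12 by -0.30 (adjusted p = 4.1e-04) and Klkb1 by -0.39 (adjusted p = 0.0029), with no overlap between the WT groups. With the authors' values they were -0.04 (adjusted p = 0.74) and -0.18 (adjusted p = 0.24), and neither passed. Their changes in Pxr-/- mice were -0.01 and 0.05. F11, which factor XII activates, changed by -0.32 and 0.16 (adjusted p = 0.081 and 0.48), and F13b, the carrier subunit of the fibrin crosslinking factor, by 0.09 and 0.19 (adjusted p = 0.30 and 0.039).

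The anticoagulants were mixed. Proc, the zymogen of activated protein C, read 15.78 to 15.92 in WT CONT mice with a median of 15.86. The 5 WT PCN mice read 15.55, 15.57, 15.63, 15.47 and 15.61, all below the WT CONT mice. Proc in Pxr-/- mice read 15.75 to 16.01 (median 15.88) with vehicle and 15.97 to 16.07 (median 16.02) with PCN, which overlapped. The change was -0.28 ± 0.05 (adjusted p = 6.6e-04) in WT and 0.13 ± 0.05 (adjusted p = 0.12) in Pxr-/- mice. These effects differed by -0.42 ± 0.07 (adjusted p = 0.0028), which was under 1.5-fold. With the authors' values the WT change was -0.04 and the difference -0.20. Pros1 (protein S, the cofactor of activated protein C) changed by 0.26 and 0.37 and Serpind1 (heparin cofactor II) by 0.20 and 0.37. Both passed the adjusted p in Pxr-/- mice (0.021 and 0.016) and not in WT mice (0.062 and 0.14), and the differences between the genotypes were -0.11 and -0.17 (adjusted p = 0.77 and 0.59). Serpinc1 (antithrombin) changed by -0.10 and -0.01.

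**Figure D4:**
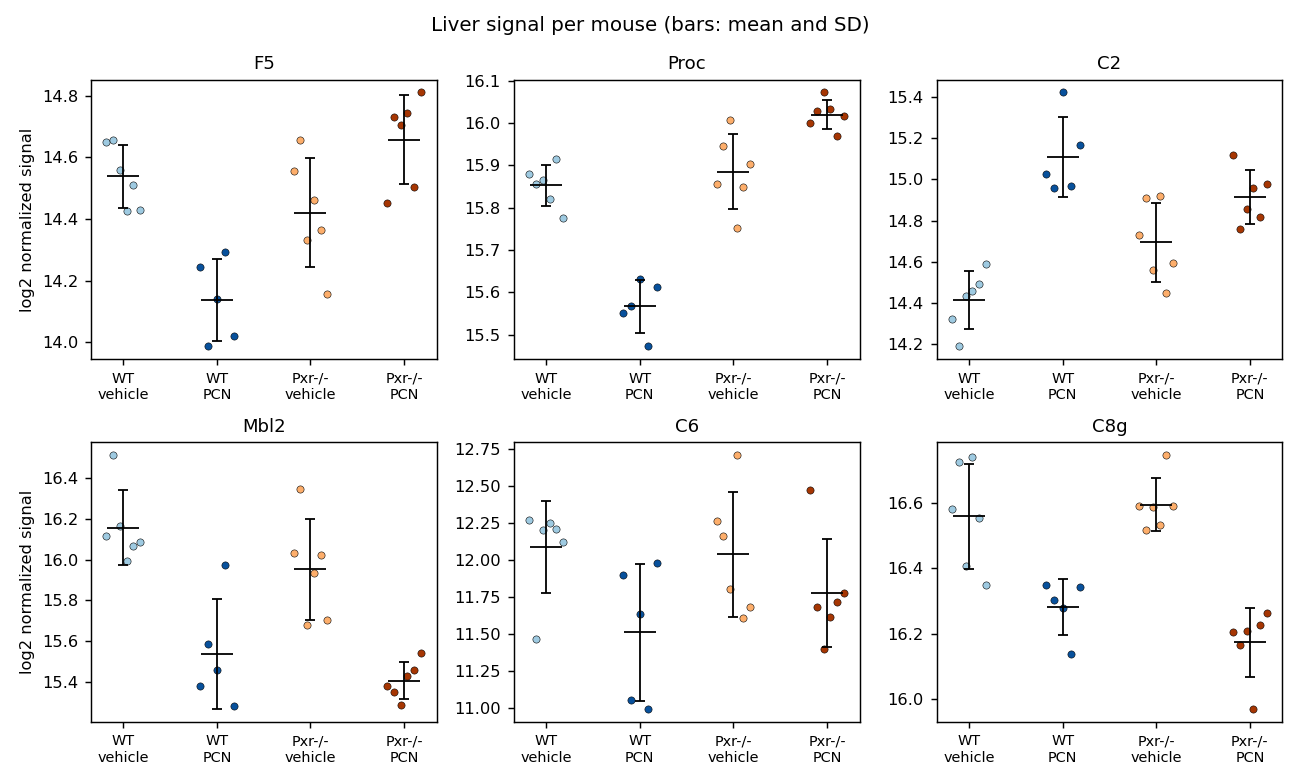
Log2 normalized signal (y axis) of F5, Proc, C2, Mbl2, C6 and C8g in each mouse, by group, with mean and SD, each panel on its own scale. The WT PCN mice lie below the WT CONT mice in F5 and Proc and above them in C2. Both PCN groups lie below their controls in Mbl2 and C8g, although the WT groups of C8g nearly touch, and the C6 groups overlap.

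Of the 4 fibrinolysis genes none was called by limma. In Pxr-/- mice Plg and Cpb2 passed the adjusted p alone as higher, beside 3.24% of all genes. At an unadjusted p under 0.05, 3 were higher there, beside 10.6%. Plg, the precursor of plasmin, read 11.84 to 12.79 in WT CONT mice (median 12.47), and 12.77, 12.68, 13.002, 12.58 and 12.59 in the 5 WT PCN mice, which overlapped. Pxr-/- mice read 12.16 to 12.73 (median 12.63) with vehicle and 12.84 to 13.34 (median 13.07) with PCN, which did not. The change was 0.29 ± 0.14 (adjusted p = 0.14) in WT and 0.55 ± 0.13 (adjusted p = 0.015) in Pxr-/- mice. Cpb2, a carboxypeptidase that protects fibrin from plasmin, had a WT change near 0 (0.08 to 0.25 with 3 other scalings) and was higher by 0.55 in Pxr-/- mice (adjusted p = 0.0068), where all PCN mice (16.29 to 16.52) lay above the vehicle mice (15.44 to 16.25). The differences between the genotypes did not pass the test (-0.26 for Plg, adjusted p = 0.58; -0.55 for Cpb2, adjusted p = 0.11). The changes of Plg and Cpb2 in Pxr-/- mice lay just under 1.5-fold, and each was called there with the authors' values (0.59 and 0.60). Vtn, an adhesive plasma glycoprotein, changed by -0.14 and 0.19, and Serpinf2, the inhibitor of plasmin, by -0.08 and 0.07.

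In the classical and lectin pathways C2, which supplies the catalytic part of the C3 convertase, was the one member called higher. C2 read 14.19 to 14.59 in WT CONT mice with a median of 14.44. The 5 WT PCN mice read 15.02, 14.96, 15.42, 14.97 and 15.17, all above the highest WT CONT mouse. C2 in Pxr-/- mice read 14.45 to 14.92 (median 14.66) with vehicle and 14.76 to 15.12 (median 14.91) with PCN, which overlapped. The change was 0.69 ± 0.10 (adjusted p = 5.9e-05, 1.61-fold higher) in WT and 0.22 ± 0.10 (adjusted p = 0.17) in Pxr-/- mice, and the difference of 0.47 ± 0.14 did not pass the test (adjusted p = 0.10). The WT call held with every other setting and without any array, at 0.59 to 0.93.

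Mbl2, a mannose-binding lectin that starts the lectin pathway, was lower with PCN in both genotypes. It read 15.99 to 16.51 in WT CONT mice (median 16.10), and 15.38, 15.59, 15.46, 15.97 and 15.28 in the 5 WT PCN mice, all below the WT CONT mice. Pxr-/- mice read 15.68 to 16.34 (median 15.98) with vehicle and 15.28 to 15.54 (median 15.40) with PCN, again with no overlap. The change was -0.63 ± 0.12 (adjusted p = 9.3e-04, 1.54-fold lower) in WT and -0.55 ± 0.12 (adjusted p = 0.0077, under 1.5-fold) in Pxr-/- mice, and these effects differed by -0.08 (adjusted p = 0.88), a value between 0.05 and 0.14 with 3 other scalings. Mbl2 lay close to the fold limit. In WT the call was lost without WT CONT replicate 2 (-0.55) and without WT PCN replicate 1 (-0.58) or replicate 5 (-0.56), with the processed signal and median centring (-0.52 in each), within washing batch 1 (-0.57), and with the authors' values (-0.38, adjusted p = 0.056). It was called in Pxr-/- mice without CONT replicate 3 (-0.60) or 6 (-0.59). Mbl1, the other mannose-binding lectin, changed by -0.29 and 0.01 (adjusted p = 0.14 and 0.98). C4b, from which both pathways build their convertase, changed by 0.17 and 0.39 (adjusted p = 0.22 and 0.013), and Masp2, the protease that cleaves C4 and C2, by -0.09 and 0.10. C4a is a near-identical neighbour of C4b, so signal of the 2 genes may be shared.

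C3, on which the pathways converge, changed by 0.02 and 0.04, with the lowest spread of all members (pooled SD within groups 0.03). Its probe exceeded 99.98% of the tested probes and several mice shared one normalized value, so this small spread is no measure of stability. A second C3 probe was higher with PCN in Pxr-/- mice (0.32, adjusted p = 0.031). Cfb, the protease of the alternative pathway convertase, read 16.18 to 16.84 in WT CONT mice (median 16.39), and 16.08, 16.07, 16.50, 16.34 and 16.15 in the 5 WT PCN mice, which overlapped. The Pxr-/- mice read 15.93 to 16.31 (median 16.25) with vehicle and 16.42 to 16.73 (median 16.55) with PCN, which did not. The change was -0.20 ± 0.11 (adjusted p = 0.20) in WT, 0.04 with the authors' values, and 0.36 ± 0.10 (adjusted p = 0.038) in Pxr-/- mice. The effects differed by -0.57 ± 0.15 (adjusted p = 0.065).

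The terminal pathway builds the membrane pore, with Hc (complement component 5) first and C9 last. All 6 members had a WT change below 0, with a median of -0.36, beside -0.02 for all genes, and 4 passed the adjusted p alone (C6, C8b, C8g and C9), where 12.4% of all genes did so as lower. In WT the values were -0.11 for Hc, -0.61 for C6, -0.24 for C8a, -0.45 for C8b, -0.27 for C8g and -0.56 for C9. With the authors' values Hc and C8a were at 0.14 and 0.04 and no member passed the adjusted p as lower. The median in Pxr-/- mice was 0.03, Hc was higher (0.37, adjusted p = 0.032) and C8g lower (-0.42, adjusted p = 0.0019).

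C6 read 11.46 to 12.26 in WT CONT mice with a median of 12.21. The 5 WT PCN mice read 11.89, 11.05, 11.63, 10.99 and 11.97, and 2 of them lay below the lowest WT CONT mouse while 3 overlapped. C6 in Pxr-/- mice read 11.60 to 12.71 (median 11.98) with vehicle and 11.40 to 12.47 (median 11.70) with PCN. The change was -0.61 ± 0.20 (adjusted p = 0.027, 1.53-fold lower) in WT and -0.26 ± 0.19 (adjusted p = 0.45) in Pxr-/- mice. C6 had the largest spread of the members (pooled SD 0.39), and its WT call was lost without WT CONT replicate 4 (-0.54) or 6 (-0.57) and without WT PCN replicate 2 (-0.54) or 4 (-0.45). It was also lost within washing batch 1 and 2 (-0.61 and -0.60, adjusted p = 0.20 and 0.14) and without the batch term (adjusted p = 0.062). C8g, the gamma chain of C8, was lower with PCN in both genotypes by the adjusted p alone, with a WT change of -0.04 (adjusted p = 0.77) with the authors' values. It read 16.35 to 16.74 in WT CONT, 16.14 to 16.35 in WT PCN, 16.52 to 16.75 in Pxr-/- CONT and 15.97 to 16.26 in Pxr-/- PCN mice, and the PCN groups lay below their controls in both. The WT groups nearly touched, with 16.3489 for the lowest CONT and 16.3486 for the highest PCN mouse.

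The complement regulators Serping1 (C1 inhibitor), Cfi (the protease that inactivates C3b and C4b) and C4bp (its cofactor) had no called member. Serping1 read 15.78 to 16.70 in WT CONT mice (median 16.23), and 15.92, 15.80, 16.26, 16.11 and 16.16 in the 5 WT PCN mice, which overlapped. The Pxr-/- mice read 15.89 to 16.29 (median 16.18) with vehicle and 16.15 to 16.54 (median 16.32) with PCN, with overlap. Its change was -0.18 ± 0.12 (adjusted p = 0.31) and 0.19 ± 0.12 (adjusted p = 0.36). Cfi changed by -0.17 and 0.21, and C4bp by -0.07 and 0.32 (adjusted p = 0.019 in Pxr-/- mice).

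Of the 36 members 11 had further probes, 13 in all. Other probes of C4b (0.59, adjusted p = 0.018), Cfb (0.62, adjusted p = 0.0084) and C4bp (0.91, adjusted p = 0.011) were called higher with PCN in Pxr-/- mice, as the brighter probes of those genes were by the adjusted p alone. A second Masp2 probe passed the adjusted p in Pxr-/- mice (0.30, adjusted p = 0.020), as did the second C3 probe, whereas their brighter probes did not (0.10 and 0.04). The second C8b probe was close to the first in WT mice (-0.47, adjusted p = 0.013). A dimmer Pros1 probe passed the adjusted p in both genotypes (0.50 and 0.46). The dimmest Pros1 probe, which exceeded 1.75% of the tested probes, did not (-0.19 and -0.26).

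Of 23 other clotting and fibrinolysis genes reported, 5 were called higher and 1 lower in WT and 4 were called higher in Pxr-/- mice. Of all genes 3.78% were called higher and 2.39% lower in WT, and 1.43% higher in Pxr-/- mice. Those called higher in WT included F13a1, the catalytic subunit of the crosslinking factor (1.76, adjusted p = 1.7e-04), Plaur, the urokinase receptor (1.52, adjusted p = 7.5e-06), and Thbd, or thrombomodulin (1.33, adjusted p = 0.0015). The protease inhibitor A2m and Plau (urokinase, 0.65) were the others called higher, and Mug2, a murinoglobulin protease inhibitor, was called lower (-0.61). Pxr-/- mice had A2m, Plaur (1.25), Thbd (1.22) and F13a1 (1.05) called. No vehicle array measured A2m well above background, whereas 4 of the 5 treated WT livers and 4 of the 6 treated Pxr-/- livers did, so no size is given for it. F13a1 passed that limit in 5 of 6 WT and 3 of 6 Pxr-/- vehicle mice, and its change was 2.58 and 1.97 with the processed signal. Mug2 was the one gene of this list called in the test of the difference (-1.06, adjusted p = 0.0018), with 0.45 in Pxr-/- mice, and its WT call was lost with 3 other scalings (-0.35 to -0.50). Mug1 and Mug2 are close paralogs whose signal may be shared.

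Of 25 further complement genes 23 were tested. None was called by limma in WT mice. By the adjusted p alone 3 were higher and 7 lower there, beside 11.6% and 12.4% of all genes. At an unadjusted p under 0.05 the counts were 4 and 7, beside 16.8% and 19.1%. C4a was called higher in Pxr-/- mice (0.78, adjusted p = 0.032), where 1.43% of all genes were called higher. C1s1, a protease of the C1 complex (-0.20 and 0.28, with 0.06 in WT with the authors' values), and Cfhr2, a factor H-related protein (-0.44 and -0.04), passed the adjusted p alone in the test of the difference (0.0043 and 0.0066). Both had the lower change in WT, beside 0.508% of all genes that passed in that direction.

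**Figure D5:**
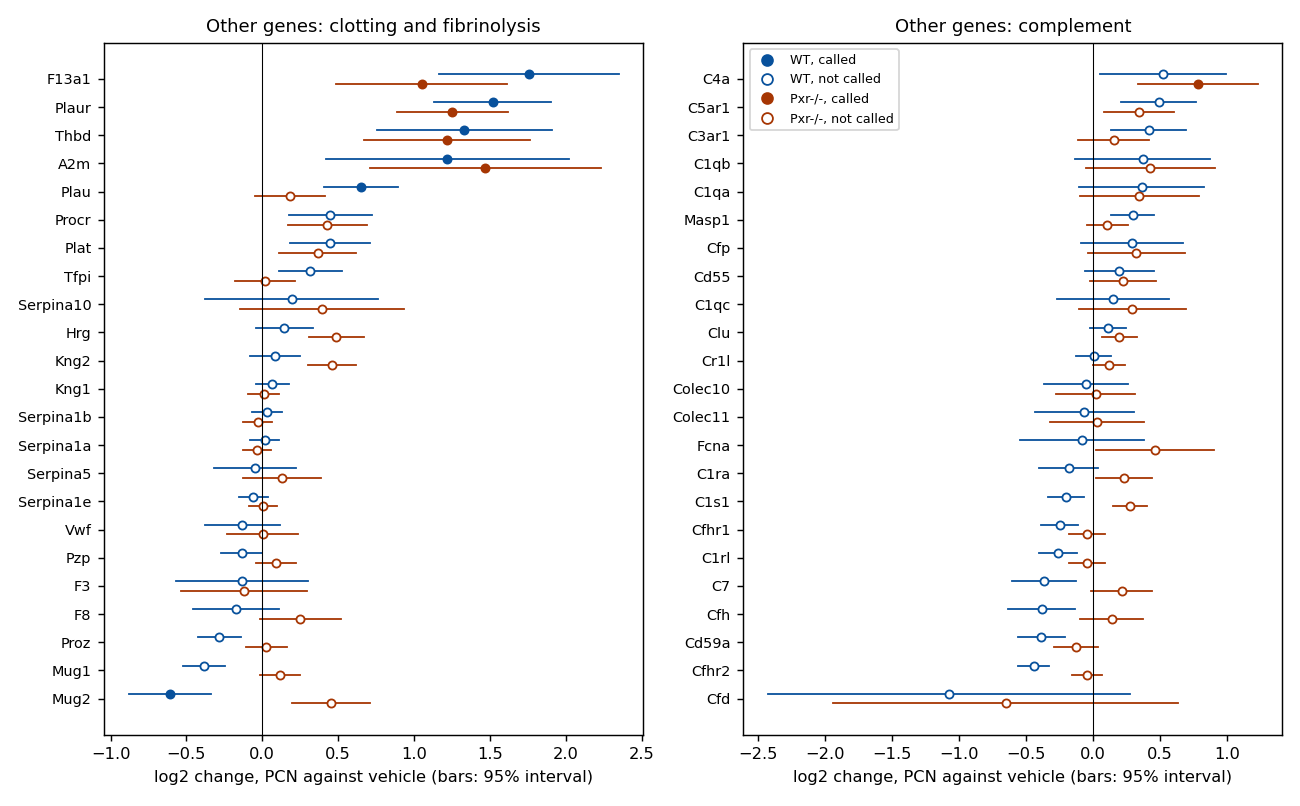
Log2 change with PCN (x axis) of the other clotting and fibrinolysis genes (left) and complement genes (right), in WT (blue) and Pxr-/- mice (orange), with 95% intervals. Filled points were called. F13a1, Plaur and Thbd are the highest in WT, A2m is drawn from vehicle values below background, and the complement list has 1 called gene, C4a, in Pxr-/- mice.

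Acute-phase genes and regulators of liver genes also changed, and their part in the members' changes was not tested. Of 15 acute-phase genes 1 was called higher in WT (Orm3, 2.62) and 4 in Pxr-/- mice, the largest Orm3 (3.17), Saa3 (1.37) and Itih3 (1.02), with Saa4 (1.02). Of all genes 3.78% and 1.43% were called higher in these comparisons. The list's median was 0.51 in WT and 1.02 in Pxr-/- mice, and the change was lower in WT for 15 of 15 (14 or 15 with other scalings). No difference between the genotypes was called by limma, with 4 lower at an unadjusted p under 0.05, beside 7.22% of all genes. With vehicle alone 15 of 15 were lower in Pxr-/- than in WT mice (13 or 15 with other scalings), with a median of -0.28. At an unadjusted p under 0.05, 4 of them were lower, beside 5.97% of all genes. Of 15 regulators Ppara (-1.05), Nr0b2 (-1.03) and Cebpa (-0.72) were called lower (Nr0b2 and Cebpa not with the authors' values) and Cebpd (1.00) and Cebpb (0.68) higher in WT, where Socs3 changed by 1.05 (adjusted p = 0.096). The Pxr-/- mice had Socs3 (1.91) and Stat3 (0.75), a feedback inhibitor and a mediator of interleukin-6 signalling, called higher. Ppara (-0.87) and Nr1h4 (-0.62) were called lower in the difference, and the Nr1h4 call was lost with 3 other scalings.

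Markers of other cells also moved. The summed log2 signal of 5 tested leukocyte markers was 11.88 to 12.94 in WT CONT and 12.96 to 14.01 in WT PCN mice, and 11.90 to 12.90 and 12.97 to 14.24 in Pxr-/- mice. The called members of that list, S100a8 and S100a9, rose by 2.21 and 2.03 with PCN in WT mice, beside 2.19 and 2.00 in the other genotype. Over the 5 markers the median change was 0.16 in WT and 0.35 in Pxr-/- mice, with 4 above 0 in each. In WT 1 marker was lower at an unadjusted p under 0.05, beside 19.1% of all genes. The summed platelet markers were at 8.96 to 9.53 and 9.84 to 10.90 in WT mice, with Pf4 called (1.09), and at 8.70 to 9.39 and 8.92 to 9.84 in Pxr-/- mice. Of the 6 stellate markers Col1a1 rose by 3.17 and 1.96, and Ecm1 was lower in WT by the adjusted p alone (-0.41). In WT 3 were above 0, and the sum overlapped between groups. Of the 5 cholangiocyte markers Sox9 rose by 0.76 in WT. The median change of the 5 was 0.73 in WT and 0.62 in Pxr-/- mice, with 4 above 0 in each genotype. At an unadjusted p under 0.05, 3 were higher in each, beside 16.8% of all genes in WT and 10.6% in Pxr-/- mice. None of the Kupffer or endothelial markers was called by limma. At an unadjusted p under 0.05, 2 endothelial markers were higher and 1 lower in WT, beside 16.8% and 19.1% of all genes. In Pxr-/- mice 3 endothelial markers were higher, beside 10.6%, and no Kupffer marker passed in either genotype. The 3 red cell markers had no call. At an unadjusted p under 0.05, 1 was lower in WT and 2 in Pxr-/- mice, beside 19.1% and 12.3% of all genes. Of the 6 hepatocyte markers Apoa1 was called higher in Pxr-/- mice (0.62) and Apob was lower in WT by the adjusted p alone (-0.52). As for most of the members, the PCN change was lower in WT than in Pxr-/- mice for 6 of 6 hepatocyte markers (4 or 5 with other scalings), beside 52.1% of all genes. Of these Apoa1 (-0.58, adjusted p = 0.034) and Apob (-0.56, adjusted p = 0.0012) passed the adjusted p alone, beside 0.508% of all genes. With quantile normalization the same direction held for 5 of 6 Kupffer, 5 of 6 endothelial, 4 of 6 stellate and 3 of 5 leukocyte markers. It held for 2 of 5 cholangiocyte, 1 of 3 red cell and 0 of 4 platelet markers. Among the 23 other complement genes it held for 19 (13 to 18 with other scalings). The part of these cells in the changes of F13a1, Plaur and the members was not tested.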

How the data were processed

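The authors scanned the arrays and deposited Agilent Feature Extraction 10.10.1.1 files, whose intensity columns give median and processed signal per spot, together with their own log2 values per probe, made per the methods from filtered median signal with a washing-batch correction and a cross normalization step. Here the deposited median intensity was taken to log2, control and outlier-flagged spots were removed, spots of 1 probe were averaged, and probes well above background in over 50% of the arrays of at least 1 group were kept (32087 of 56605) and quantile normalized. limma 3.58.1 in R 4.3.3 fitted the 4 groups with washing batch as a term (18 residual degrees of freedom), with Benjamini-Hochberg adjustment over the kept probes. Each gene was read from 1 probe. The number of arrays limits the precision. The fit was tested on simulated data. Members, lists and tests were chosen with earlier results of these data known. Full values are given for members called in a comparison and, in roles without one, for the member with the largest WT change; from other lists, for at most 3 called genes per comparison, and further called genes were named after their values were seen. Probe positions are those of the files (mm9), and promoters those of RefSeq (GRCm38.p6). Alternatives were the processed signal scaled to its 75th percentile, normexp (offset 50), median centring, the authors' values, other filters, no batch term, each batch alone, slide or replicate number as a block, only the groups compared, no fold limit, the mean over probes and leaving out each array. The 8 slides lie within the 2 washing batches, which hold 3 arrays of each group except WT PCN, with 2 in batch 2. The labels list 12 mice of each genotype, and 1 WT PCN mouse was not analysed here. Of the lists of other genes, 2 genes are not reported here.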

Additional observations from a re-analysis of the deposited data

Results flagged for a closer look

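In 13 of 144 combinations of member and group 1 mouse stood apart from the rest, measured as its gap to the nearest mouse over the range of the group. Chance alone marks about 1 in 20. In WT CONT replicate 2 this held for Serpinc1 (0.768, high), Mbl1 (0.645, low), Mbl2 (0.673, high) and C6 (0.820, low), and in WT CONT replicate 3 for F9 (0.704, low). In WT PCN replicate 1 it held for C3 (0.743, low). In Pxr-/- CONT mice it held for F10 in replicate 2 (0.704, high) and for Vtn (0.693, low), Cfb (0.715, low) and C8g (0.677, high) in replicate 5. In Pxr-/- PCN mice it held for C6 in replicate 1 (0.648, high), C8g in replicate 4 (0.670, low) and Fgg in replicate 6 (0.670, low). The C6 change in WT without WT CONT replicate 2 was -0.70, and that of Mbl2 was -0.55, under the fold limit.

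The PCN change of F5 differed between the genotypes by -0.64 in the limma test of the difference (adjusted p = 0.0051).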

How the results depend on the processing

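Of the recomputed counts and medians 396 stayed close to the values above and 41 moved, and no single member changed sign past a test. In WT mice 1 member was called lower with the processed signal, median centring, no batch term, within washing batch 2 and with only the groups compared, 0 with the authors' values and within batch 1, 9 with no fold limit, and 1 to 3 without single arrays. Members called higher in WT were 2 with the mean over probes, and the WT median was 0.0565 with the authors' values. In Pxr-/- mice members called higher were 2 with the authors' values and with the mean over probes, 9 with no fold limit and 0 to 1 without single arrays, and members called lower were 2 and 0 to 1. The Pxr-/- median was 0.0753 within batch 1. In the difference, members called lower were 0 with the processed signal, median centring, the authors' values and within batch 1, 2 with no fold limit and 1 to 3 without single arrays, the highest without WT CONT replicate 2, and 1 was called higher with the authors' values. Its median was -0.22, -0.21, -0.13 and -0.20 with the processed signal, median centring, the authors' values and batch 1. The genotype median was 0.0431 with the processed signal and -0.14 with the authors' values, in which the median probe moved by -0.11. The 9 members past the adjusted p alone in Pxr-/- mice were 5 without CONT replicate 3 or 5 or PCN replicate 3, 4 without PCN replicate 4, and 6 without CONT replicate 1 or 6 or unfiltered.

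Replicate numbers showed no clear pairing of the mice, although the correlations cannot exclude a pairing. Same-numbered arrays correlated by -0.17 to 0.61 (median 0.0024, 33 pairs), and 7 of 23 matched their own number best. With the replicate block 1 member was called higher and 2 lower in WT, with a median of -0.10. In Pxr-/- mice 0 were called and the median was 0.18, and in the difference 1 was called lower, with a median of -0.27. Signal over background limited no member, since all 36 probes were well above it on every array.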

Other observations

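The signal of the downstream Fga probe minus that of the brighter Fga probe was computed in each mouse, a comparison chosen after the values were seen. The p-values below do not account for that choice of probe, so they are no independent support for the change. The difference was -3.02 ± 0.78 (SD, n = 6) in WT CONT and -1.18 ± 0.48 (SD, n = 5) in WT PCN mice (two-sided exact permutation p = 0.00866, where 0.00433 is the smallest possible, adjusted p = 0.013 over 3 tests). It was -2.86 ± 0.48 (SD, n = 6) in Pxr-/- CONT and -1.24 ± 0.42 (SD, n = 6) in Pxr-/- PCN mice (two-sided exact permutation p = 0.00216, the smallest possible, adjusted p = 0.0065). The vehicle groups differed by 0.16 between the genotypes (two-sided exact permutation p = 0.697). Levels of different probes are not comparable, so that only the change of this difference between groups is described.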
